A study of Mus musculus with 189 samples.

Results

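The RNA of 10 genes for secreted cytokines and chemokines was followed in single mast cells and mast cell progenitors of the mouse peritoneal cavity. The genes are Il4, Il13, Il6, Tnf, Ccl2, Ccl3, Ccl4, Csf1, Lif and Tgfb1. They were taken by symbol, 10 of the 46078 genes in the deposited table, and each was present there. The series profiled late mast cell differentiation by sequencing 189 single cells from 4 female C57BL/6 mice for which the labels give no treatment, with 1 cell sorted per well. Of these, 94 were labelled mature mast cells (hereafter mature cells), sorted as live, lineage-negative, c-Kit-positive and FcεRI-positive cells with low integrin β7 and high side scatter. The other 95 were labelled basophil-mast cell progenitors (BMCPs), which shared the other marks but were taken with integrin β7 high and side scatter low. Expression is given in CPM, the reads of a gene scaled to 1000000 reads on mouse genes, and a cell needed 100000 such reads, which left 94 mature mast cells and 93 BMCPs.

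Mast cells store proteases and histamine in granules and also transcribe cytokine and chemokine genes, many of them after the IgE receptor, cytokine receptors or pattern receptors are engaged. IL-4 and IL-13 are the cytokines of type 2 immunity, IL-6 and TNF are inflammatory cytokines, and CCL2, CCL3 and CCL4 draw monocytes and lymphocytes into tissue. CSF1 supports macrophages, LIF is a cytokine of the IL-6 family, and TGF-β1 is made as a latent protein that is activated outside the cell. Transcription of several of these genes is driven by NFAT, AP-1 and NF-κB factors, and their mRNAs are often short-lived.

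Of the 10 genes, 6 lie on chromosome 11 in GRCm38. The neighbours Il4 (ENSMUSG00000000869, 53602982 to 53618669) and Il13 (ENSMUSG00000020383, 53631324 to 53634702) are separated by 12.7 kb. Ccl3 (ENSMUSG00000000982, 83647844 to 83649355) and Ccl4 (ENSMUSG00000018930, 83662584 to 83664683) are separated by 13.2 kb. Ccl2 (ENSMUSG00000035385) lies at 82035571 to 82037453 and Lif (ENSMUSG00000034394) at 4257557 to 4272514. The remaining 4 are Il6 (ENSMUSG00000025746, chromosome 5, 30013114 to 30019981), Tnf (ENSMUSG00000024401, chromosome 17, 35199381 to 35202007), Csf1 (ENSMUSG00000014599, chromosome 3, 107741048 to 107760469) and Tgfb1 (ENSMUSG00000002603, chromosome 7, 25687002 to 25705077). All 10 are protein coding in GENCODE M21, and no annotated exon of another gene overlaps theirs.

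The 250 bases before the start sites of 4 of these genes are printed because the genes divided the cells in different ways. Among BMCPs, Il6 and Ccl3 were held by cells with granzyme B RNA and Tnf mostly by other cells. Il6 was also held by 5 mature mast cells. Il4 was held by about as many mature mast cells as BMCPs. The sequences are the gene's strand, 5′ to 3′, from RefSeq on GRCm38.p6, and capitals mark matches on either strand to TGANTCA, the AP-1 motif, and GGAAA, the core of NFAT sites. The windows are chr5:30012864-30013113 (plus strand) for Il6, chr11:83649379-83649628 (minus) for Ccl3, chr17:35202008-35202257 (minus) for Tnf and chr11:53618666-53618915 (minus) for Il4.
Il6: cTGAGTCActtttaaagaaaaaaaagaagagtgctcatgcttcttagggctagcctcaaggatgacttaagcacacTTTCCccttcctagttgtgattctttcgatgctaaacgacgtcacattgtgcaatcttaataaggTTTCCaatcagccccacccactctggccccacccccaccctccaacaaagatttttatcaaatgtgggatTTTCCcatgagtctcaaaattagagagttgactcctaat
Ccl3: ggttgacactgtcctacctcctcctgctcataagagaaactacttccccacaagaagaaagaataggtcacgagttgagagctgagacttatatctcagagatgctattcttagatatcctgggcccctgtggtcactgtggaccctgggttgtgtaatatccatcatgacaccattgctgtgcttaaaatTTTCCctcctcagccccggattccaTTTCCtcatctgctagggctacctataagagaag
Tnf: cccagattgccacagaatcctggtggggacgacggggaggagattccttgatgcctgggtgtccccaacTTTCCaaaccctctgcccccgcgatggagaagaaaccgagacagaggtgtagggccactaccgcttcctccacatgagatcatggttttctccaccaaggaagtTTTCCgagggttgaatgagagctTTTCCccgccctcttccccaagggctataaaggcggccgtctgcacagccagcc
Il4: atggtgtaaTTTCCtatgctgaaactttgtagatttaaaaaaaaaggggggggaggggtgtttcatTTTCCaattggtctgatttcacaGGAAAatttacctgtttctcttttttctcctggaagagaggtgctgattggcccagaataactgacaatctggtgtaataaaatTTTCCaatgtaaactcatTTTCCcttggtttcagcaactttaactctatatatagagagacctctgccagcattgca

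RefSeq gives Il4 a second window, at chr11:53617339-53617588, which had no match to any motif searched and is not printed. The printed Il4 window had 5 matches to the NFAT core, those of Il6 and Tnf 3 each, and that of Ccl3 2. Of the 4 windows shown, that of Il6 held the AP-1 motif. RefSeq windows were found for 8 of the 10 genes, all but Ccl2 and Ccl4. Of those 8, 7 had the NFAT core, 2 the AP-1 motif (Il6 and Lif) and 2 the GATA factor motif GATAA (Il6 and Il13). Over all 32851 RefSeq windows of this length, 55.6% held the NFAT core, 6.75% the AP-1 motif and 22.6% the GATA motif. A match is a description of the letters and not a binding site.

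The kept mature cells had a median of 1255267 reads on mouse genes (561600 to 2152221) and the kept BMCPs 1247890 (344022 to 2091665). Which mouse a cell came from is not in the labels, so a group was 1 pooled sample and no test between groups was possible. Every interval below covers counting error only. Intervals of pooled CPM count reads, PCR copies included, and leave out the spread between cells and between mice. Nearly all cells held the RNA of the sort markers: Kit reached 20 CPM in 93 of 94 mature cells and 89 of 93 BMCPs, Fcer1a in 93 and 86, and the granule protease gene Cpa3 in all of both groups. Of 8 macrophage genes none reached 5 CPM in either group, and Adgre1, Csf1r and C1qb had no read. Of 6 T cell genes, Cd3e, Cd3d and Cd3g had no read. Cd2 (0.0337 CPM in mature cells, 16.8 in BMCPs) and Lck (0 and 7.18) were higher in BMCPs, with BMCP 46 holding 1442 of 2012 Cd2 reads and BMCP 44 holding 856 of 858 Lck reads. The NK genes Ncr1, Klrb1c and Eomes had no read. Their list also held Il1rl1 and Gata3, which both groups expressed. B cell genes were present in some cells, with 50 or more reads of at least 2 such genes in mature cells 20 and 52 and BMCPs 46 and 80.

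Over the pooled cells, 4 of the 10 genes were higher in BMCPs by a factor of 2 or more (Il6, Ccl3, Ccl4 and Csf1) and 0 in mature cells, without a replicate check. Among all 10556 genes that reached 5 CPM in 1 group or both, 19.2% were higher in BMCPs by that factor and 9.9% in mature cells. Of the 10, 8 genes reached 5 CPM. Their median log2 ratio, of mature CPM + 1 over BMCP CPM + 1, was -1.38, against -0.25 for all genes tested. The ratios of Il4, Ccl2, Lif, Tnf and Tgfb1 stayed within a factor of 2 on this scale. Spike-in scaling shifted the median of all genes to 0.68, since BMCPs had fewer mouse reads per spike-in read (a median of 562 against 939.1). CPM gives a gene's share of the cell's RNA, and spike-in scaling gives its reads per spike-in read. With spike-in scaling the log2 ratios were -3.40 for Il6, -5.88 for Ccl3, -6.71 for Ccl4 and -1.05 for Csf1. They were 0.19 for Il4, 0.08 for Ccl2, 1.11 for Tnf and 1.56 for Tgfb1. Whether spike-in RNA was even over the wells was not tested.

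**Figure D1:**
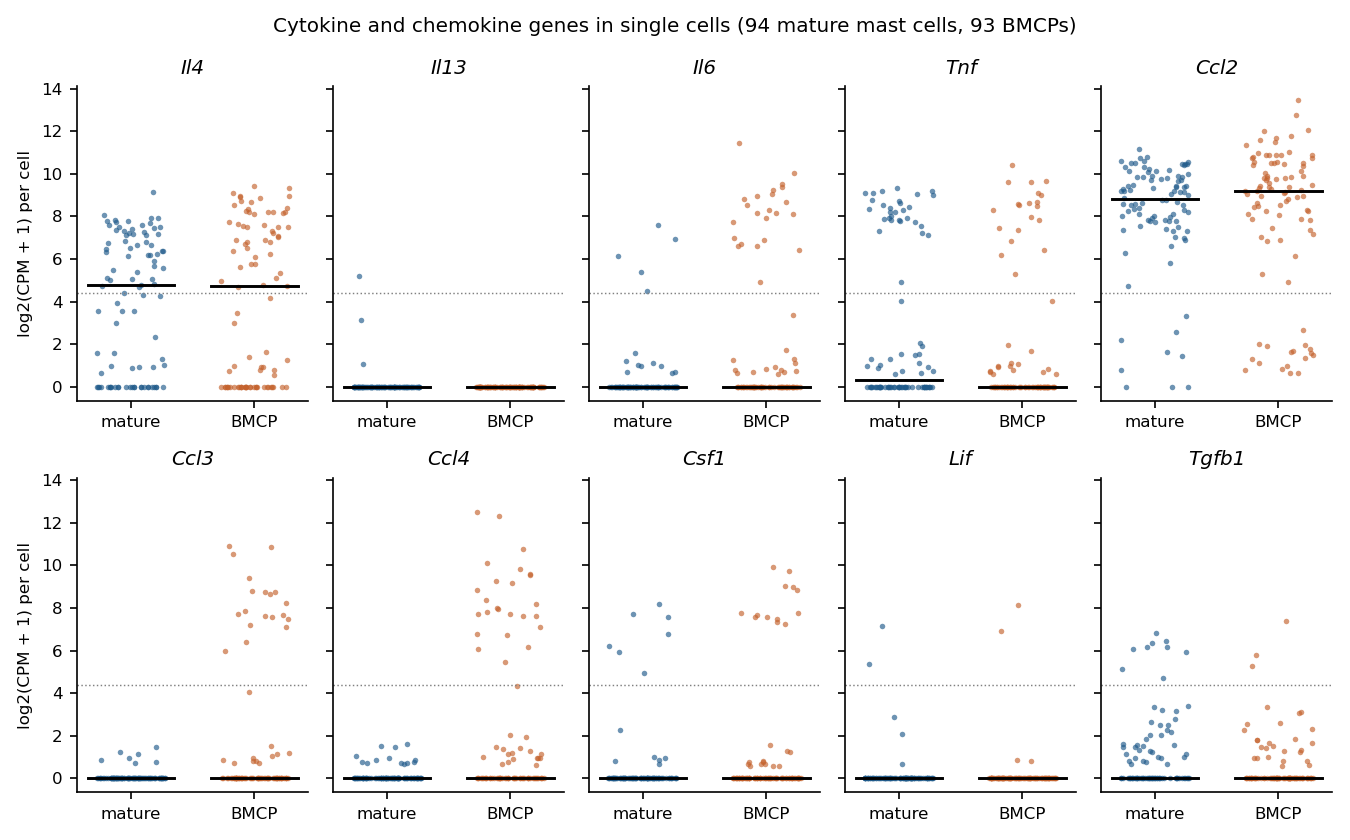
Each point is a cell, with log2(CPM + 1) of the gene named above each panel for 94 mature cells (blue) and 93 BMCPs (orange). Black lines are medians and the dotted line is 20 CPM; Il4, Tnf and Ccl2 span both groups, whereas no mature mast cell reaches the line for Ccl3 or Ccl4.

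Il4 was held by similar shares of both groups. It was above 20 CPM, the level used here for a cell that holds a gene, in 51 of 94 mature cells (54.3%, exact interval 43.7 to 64.6%) and in 48 of 93 BMCPs (51.6%, 41 to 62.1%). Values ran from 0 through a median of 26.9 to 561.9 CPM in mature cells and from 0 through 26 to 697.5 CPM in BMCPs, so the groups overlapped over nearly their whole range. Cells that held Il4 had a median of 108.5 CPM in the mature group and 180.2 CPM among BMCPs. Pooled Il4 was 71.6 CPM (70.1 to 73.1) in mature cells and 118.0 CPM (116.1 to 120.0) in BMCPs, a log2 ratio of -0.71, which became 0.19 with spike-in scaling. Values also differed with the order of columns in the table: in the first run of columns (mature cells 1 to 47, BMCPs 1 to 48) pooled Il4 was 49.7 against 137.0 CPM, and in the second run (mature 48 to 94, BMCP 49 to 95) it was 90.8 against 99.4 CPM. The labels do not say what these runs are.

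Il13, the neighbour of Il4, was almost absent. The mature cells held 64 reads in all, 54 of them in mature mast cell 61, at 35.6 CPM the single cell above 20 CPM, and the BMCPs held none. Against the nominal 3-read limit of the BMCPs this was 21.5-fold higher in mature cells. Without that cell the mature level was 0.0852 CPM and the log2 ratio fell from 0.62 to 0.12. Thus 51 mature cells held Il4 and 1 held both genes, and 48 BMCPs held Il4 and none held Il13.

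Il6 separated the groups in number of cells and in level. It was above 20 CPM in 5 of 94 mature cells (5.32%, 1.75 to 12%) and 23 of 93 BMCPs (24.7%, 16.4 to 34.8%). The highest mature mast cell had 192.0 CPM and the highest BMCP 2799 CPM, while the median cell of both groups had 0. Among the cells that held it, the median was 69 CPM in mature cells and 289.4 CPM in BMCPs, and BMCPs below 20 CPM had at most 10 Il6 reads each. Pooled Il6 was 4.54 CPM (4.17 to 4.94) against 103.7 CPM (101.9 to 105.5), a log2 ratio of -4.24. Mature mast cell 87 held 38.9% of the mature reads, and without it the mature level was 2.80 CPM and the ratio -4.78. In the first run of columns no mature mast cell held Il6 and 9 BMCPs did, and in the second 5 and 14 did.

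Tnf was held by 30 of 94 mature cells (31.9%, 22.7 to 42.3%) and 20 of 93 BMCPs (21.5%, 13.7 to 31.2%). The levels overlapped: the median cell had 0.261 CPM in mature cells and 0 in BMCPs, and the highest 645.0 and 1354 CPM. Cells that held Tnf had similar medians of 307.7 and 364.7 CPM. Pooled Tnf was 109.9 CPM (108.0 to 111.8) and 95.0 CPM (93.2 to 96.7), a log2 ratio of 0.21. The direction was not stable within the table, with 89 against 126.0 CPM in the first run of columns and 128.2 against 64.5 CPM in the second. BMCP 45 held 23.3% of the BMCP reads, and without it the ratio was 0.56.

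Ccl2, which encodes the monocyte attractant MCP-1, was the most widely held of the 10 genes. It was above 20 CPM in 85 of 94 mature cells (90.4%, 82.6 to 95.5%) and 76 of 93 BMCPs (81.7%, 72.4 to 89%), and every BMCP and 91 mature cells had at least 1 read. Its median was 453.6 CPM in mature cells and 591.2 CPM in BMCPs, and the highest cells had 2333 and 11289 CPM. The upper end was wider among BMCPs, with an upper quartile of 1455 CPM against 921.6 CPM. Pooled Ccl2 was 603.7 CPM (599.3 to 608.2) against 1078 CPM (1072 to 1084), a log2 ratio of -0.83 that became 0.08 with spike-in scaling. BMCP 69 alone held 9.15% of the BMCP reads. The next gene of that cluster, Ccl7 (8.26 kb from Ccl2), was held by 9 mature cells and 1 BMCP, all of which held Ccl2 too.

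Ccl3 and Ccl4, which encode the ligands MIP-1α and MIP-1β, were found in BMCPs at levels no mature mast cell approached. No mature mast cell reached 20 CPM for either (0 of 94, exact interval up to 3.85%), and none had more than 2 reads of either gene. Ccl3 was above 20 CPM in 19 of 93 BMCPs (20.4%, 12.8 to 30.1%), from 62.5 through a median of 229.7 to 1923 CPM in those cells. Ccl4 was above it in 25 of 93 BMCPs (26.9%, 18.2 to 37.1%), from 42.7 through 251.5 to 5756 CPM.

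The pooled Ccl3 count was 8 reads (0.0673 CPM) in mature cells and 10417 reads (87.2 CPM) in BMCPs, a log2 ratio of -6.37. For Ccl4 it was 15 reads (0.126 CPM) and 19969 reads (167.1 CPM), a log2 ratio of -7.22. Without the added 1 CPM the ratios correspond to 1295-fold and 1324-fold. The BMCP reads were uneven: BMCP 52 held 23.8% of those of Ccl3 and BMCP 69 30.1% of those of Ccl4, and without these cells the BMCP levels were 67.3 and 117.8 CPM. Both genes were held in both runs of columns, Ccl3 by 11 and 8 BMCPs and Ccl4 by 13 and 12.

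Csf1, the macrophage growth factor gene, was held by 7 of 94 mature cells (7.45%, 3.05 to 14.7%) and 13 of 93 BMCPs (14%, 7.66 to 22.7%). Cells holding it had a median of 107.1 CPM in the mature group and 217.5 CPM among BMCPs. Pooled Csf1 was 10.1 CPM (9.54 to 10.7) against 40.9 CPM (39.7 to 42), a log2 ratio of -1.92. The value rested on few cells. Mature mast cell 5 held 37.3% of the mature reads, and without it the mature level was 6.41 CPM. BMCP 16 held 26.2% of the BMCP reads, and without it the BMCP level was 30.5 CPM. The ratio was -1.43 in the first run of columns and -3.00 in the second. With spike-in scaling it was -1.05, close to the factor of 2.

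Lif and Tgfb1 were low. Lif was held by 2 cells in each group, at 1.51 CPM pooled in mature cells and 3.97 CPM in BMCPs. Mature mast cell 14 held 57.8% of its mature reads and BMCP 86 held 69.8% of its BMCP reads, and without them the levels were 0.644 and 1.21 CPM. Tgfb1 was held by 9 of 94 mature cells (9.57%, 4.47 to 17.4%) and 3 of 93 BMCPs (3.23%, 0.670 to 9.14%), with pooled levels of 8.16 CPM (7.66 to 8.69) and 4.30 CPM (3.94 to 4.69). Its log2 ratio was 0.79, with BMCP 78 holding 60.9% of the BMCP reads, and without that cell the BMCP level was 1.71 CPM and the ratio 1.76. It was 1.56 with spike-in scaling, 2.12 in the first run of columns and 0.21 in the second.

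Per kilobase of annotated exon, which allows levels of different genes to be compared, Ccl2 was first in both groups, at 530.5 CPM per kb in mature cells and 947.0 in BMCPs. In mature cells Tnf (67.1) and Il4 (58.4) followed, and the other 7 genes were at 1.91 CPM per kb or below. In BMCPs the next were Ccl4 (253.1), Ccl3 (113.8), Il4 (96.2), Tnf (57.9), Il6 (42.7) and Csf1 (7.74). The mature pattern was therefore carried by 3 genes, and the BMCP pattern by these and Ccl3, Ccl4, Il6 and Csf1. Without the richest cell of each gene the BMCP values were 178.5 for Ccl4, 87.9 for Ccl3, 91.2 for Il4, 45.2 for Tnf and 33.7 for Il6, so that Ccl3 and Il4 changed places. These levels have no spread over samples, so neighbours in the order were not tested.

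**Figure D2:**
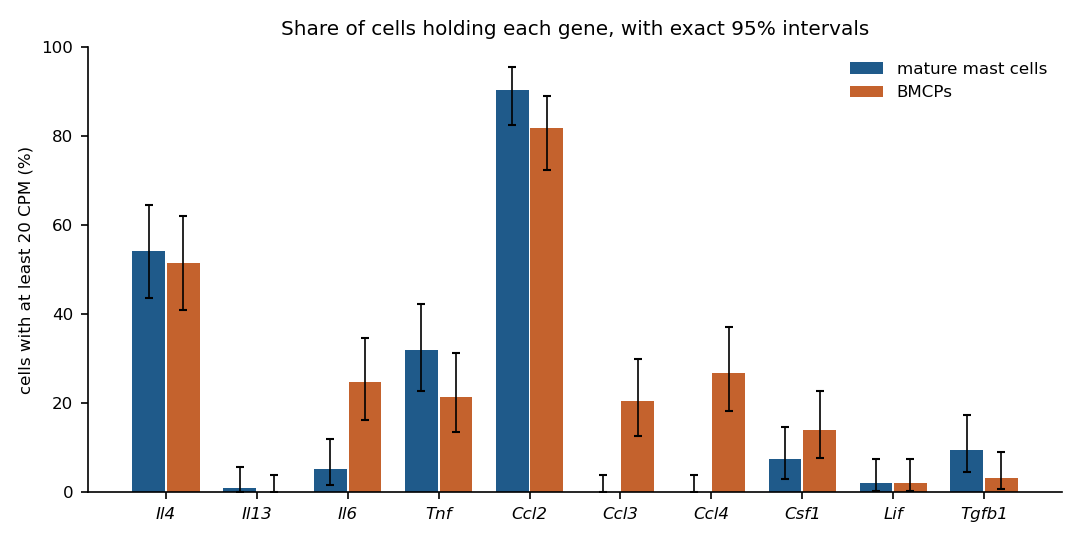
Bars give the percentage of 94 mature cells (blue) and 93 BMCPs (orange) with at least 20 CPM of each gene, and error bars are exact 95% binomial intervals. The intervals cover counting of cells within 1 pooled sample a group, not spread between mice; Ccl3 and Ccl4 stand at 0% of mature cells and 20.4 and 26.9% of BMCPs.

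Most cells of both groups held a few of the 10 genes, with a median of 2. The most held by a mature mast cell was 4, in 6 cells, whereas 4 BMCPs held 5 and 3 held 6. A single mature mast cell held none, as did 7 BMCPs. In mature cells the 3 common genes were spread without visible order: Il4 and Tnf were both above 20 CPM in 15 cells, with 51 and 30 holding each, and Spearman's rho over the 94 cells was -0.06. The other pairs gave -0.03 (Il4 with Ccl2) and -0.06 (Tnf with Ccl2).

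In BMCPs, Il6, Ccl3 and Ccl4 were often held by the same cells. Of the 19 BMCPs with Ccl3, 15 (78.9%) held Ccl4, which is 60% of the 25 with Ccl4. Of the 23 with Il6, 15 (65.2%) held Ccl4 and 10 (43.5%) held Ccl3. Over all 93 BMCPs the product of the shares corresponds to 5.11 cells for Ccl3 with Ccl4, 6.18 for Il6 with Ccl4 and 4.70 for Il6 with Ccl3. Nearly all cells with these genes were among the BMCPs high in granzyme B RNA, described below, and the products do not allow for that. Co-holding within those BMCPs alone was not tested. At least 2 of the 3 genes were found in 20 BMCPs, all 3 in 10, and any in 37. Spearman's rho over the 93 BMCPs was 0.35 for Ccl3 with Ccl4, 0.32 for Il6 with Ccl4 and 0.24 for Il6 with Ccl3. Each cell is its own library, and all share the animals and plates.

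Tnf was mostly found in other BMCPs. It was held by 1 of the 37 BMCPs with any of Il6, Ccl3 and Ccl4 (2.70%, 0.0684 to 14.2%) and by 19 of the 56 with none (33.9%, 21.8 to 47.8%). Spearman's rho of Tnf with Ccl4 was -0.34. No BMCP held both Tnf and Csf1, but with 20 and 13 cells holding each, the product of their shares corresponds to only 2.80 cells. Il4 and Ccl2 were less divided: of the 48 BMCPs with Il4, 40 also held Ccl2 and 12 held Tnf, and of the 23 with Il6, 18 held Ccl2.

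RNA of granzyme B, a protease best known from cytotoxic lymphocytes, divided the BMCPs into 60 cells with at least 100 CPM of Gzmb and 33 below, with no cell between 50 and 200 CPM. The cut was chosen with earlier results of these data known. The Gzmb-high BMCPs had a median of 1273122.5 reads and the Gzmb-low 1233201, with 3593.5 and 3895 genes detected and 497.0 and 731.4 mouse reads per spike-in read. Read depth was thus similar while detected genes and reads per spike-in read were lower in the Gzmb-high cells. Their part in the differences below was not tested.

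Il6, Ccl3 and Ccl4 belonged almost wholly to the Gzmb-high BMCPs. Il6 was held by 23 of 60 Gzmb-high cells (38.3%, 26.1 to 51.8%) and 0 of 33 Gzmb-low cells (up to 10.6%), with 162.1 and 0.486 CPM pooled. Ccl3 was held by 19 (31.7%, 20.3 to 45%) and 0, with 136.4 and 0.208 CPM. Ccl4 was held by 24 (40%, 27.6 to 53.5%) and 1 (3.03%, 0.0767 to 15.8%), with 245.1 and 29.2 CPM, and that single Gzmb-low cell held 1250 of the 1261 Gzmb-low reads.

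The reverse held for Tnf, found in 7 of 60 Gzmb-high BMCPs (11.7%, 4.82 to 22.6%) and 13 of 33 Gzmb-low BMCPs (39.4%, 22.9 to 57.9%). In mature cells the share was 31.9%. Pooled Tnf was 80.7 and 120.1 CPM. BMCP 45 held 2644 of the 6163 Gzmb-high reads, and without it the Gzmb-high level was 47.3 CPM. Within the Gzmb-high cells alone, Tnf was held by 1 of 36 with any of Il6, Ccl3 and Ccl4 and by 6 of 24 with none, 2.78% (0.0703 to 14.5%) against 25% (9.77 to 46.7%).

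The other genes were not divided in this way. Il4 was held by 33 of 60 Gzmb-high BMCPs (55%) and 15 of 33 Gzmb-low BMCPs (45.5%), at 150 and 61.6 CPM pooled. Ccl2 was held by 48 (80%) and 28 (84.8%), at 1344 and 606.8 CPM. Csf1 was held by 9 (15%) and 4 (12.1%). Lif and Tgfb1 were held by 2 and 3 Gzmb-high cells and no Gzmb-low cell.

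How often genes of similar frequency were divided like this was counted over the table. Ccl3, Tnf, Il6 and Ccl4 were held by 19, 20, 23 and 25 BMCPs, and 1135 genes were held by 19 to 25, a range chosen after these values were seen. Of the 1135, 13 genes (1.15%) had at most 1 Gzmb-low cell, and Il6, Ccl3 and Ccl4 were among them. The others included Ccr1, the receptor for CCL3 (21 and 0 cells), Ltb4r1, a leukotriene B4 receptor (19 and 1), Maf, a transcription factor (22 and 1), and Fut7, a fucosyltransferase of selectin ligand synthesis (19 and 0). These 4 were chosen after their values were seen. A Gzmb-low share at least 2 times the Gzmb-high share was found for 142 (12.5%). The Tnf shares, 39.4 against 11.7%, lay further apart than this cut, and genes divided as strongly as Tnf were not counted.

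**Figure D3:**
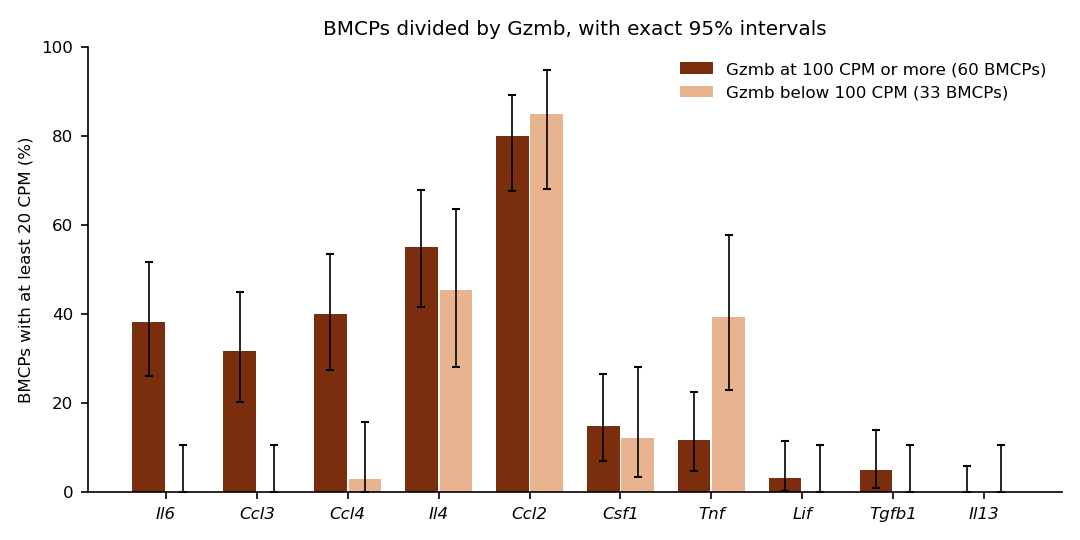
Bars give the percentage of BMCPs with at least 20 CPM of each gene among 60 cells with at least 100 CPM of Gzmb (dark) and 33 cells below (light), with exact 95% binomial intervals. Il6, Ccl3 and Ccl4 stand at 38.3, 31.7 and 40% against 0, 0 and 3.03%, and Tnf at 11.7% against 39.4%.

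**Figure D4:**
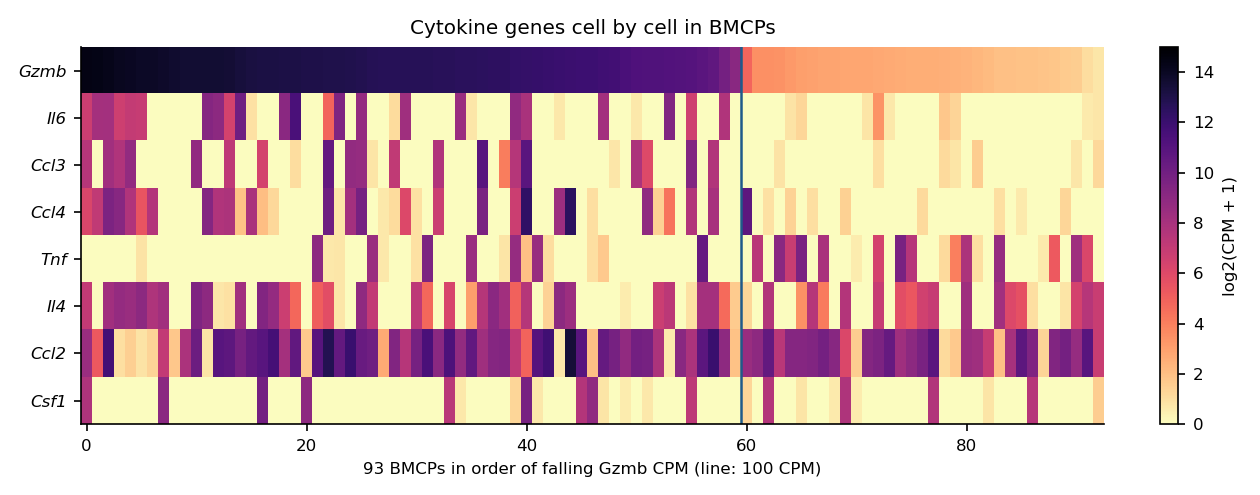
Columns are the 93 BMCPs in order of falling Gzmb, rows are genes, and colour is log2(CPM + 1). The line marks 100 CPM of Gzmb: Il6, Ccl3 and Ccl4 lie to its left in all but 1 cell above 20 CPM, Tnf lies on both sides, and Il4 and Ccl2 run across.

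Within the Gzmb-high BMCPs, the basophil protease gene Mcpt8 was at 100 CPM or more in 37 cells. Il6 was held by 19 of these 37 (51.4%, 34.4 to 68.1%) and by 4 of the other 23 (17.4%, 4.95 to 38.8%). Ccl4 was held by 20 (54.1%, 36.9 to 70.5%) and 4, and Ccl3 by 15 (40.5%, 24.8 to 57.9%) and 4. Ccl2 was held by 29 (78.4%) and 19 (82.6%).

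Granule content and immediate early genes differed between cells with and without some of these genes. Mast cell granule genes made up a median of 8.33% of reads in BMCPs with Il6 and 18.4% in those without, 8.33 and 18.3% for Ccl4, and 9.89 and 18% for Ccl3. For Tnf the order was reversed, 21.1 and 14.9%. The summed level of 18 immediate early genes, which respond within minutes to stimulation and to tissue dissociation, had a median of 436.6 CPM in mature cells (3.53 to 3541) and 1288 CPM in BMCPs (4.17 to 7793). Its median was 2539 CPM in BMCPs with Ccl3 and 1125 CPM in those without. For Ccl4 the values were 1727 and 1169 CPM, for Il6 1449 and 1191 CPM, for Il4 1449 and 1149 CPM, for Ccl2 1361 and 1149 CPM, for Csf1 1090 and 1370 CPM and for Tnf 896.2 and 1391 CPM. Spearman's rho with the summed level over the 93 BMCPs was 0.25 for Ccl3 and for Ccl4, 0.21 for Ccl2, 0.14 for Il4, -0.01 for Il6, -0.06 for Csf1 and -0.19 for Tnf. In mature cells the median was 621.7 CPM with Tnf and 402.9 CPM without, 411.5 and 454.4 CPM for Il4, and 430.1 and 549.7 CPM for Ccl2. BMCPs with Il6, Ccl3 or Ccl4 were nearly all Gzmb-high, whereas those without also took in the Gzmb-low cells. The Gzmb classes themselves differed: pooled Mcpt4, a granule gene, was 1715 CPM in Gzmb-high and 13170 CPM in Gzmb-low BMCPs. Jun was 586.7 and 249.8 CPM, and Ier3 523.7 and 178.3 CPM. Granule and immediate early levels were not compared within a Gzmb class. A difference by cytokine gene was therefore not separated here from one by Gzmb class. The part of the immediate early genes in the results was not tested.

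The rest of the cytokine and chemokine network was covered by lists, which share libraries and animals with the 10 genes. The counts called in each list stand beside shares of 19.2% in BMCPs and 9.9% in mature cells over all 10556 genes tested. Of 32 other cytokine genes, 7 reached 5 CPM, 3 were higher in BMCPs by a factor of 2 or more and 1 in mature cells, and their median log2 ratio was -0.93. Without the richest cell of each gene in each group, 5 reached 5 CPM, 0 were called in BMCPs and 1 in mature cells. The 3 calls that rested on such cells were Osm, Tnfsf9 and Il12a, the last of which had 692 of its 712 reads in BMCP 80, a cell with B cell genes. The most abundant were Il16 (76.4 CPM in mature cells, 104.3 in BMCPs), Osm, a cytokine of the IL-6 family (38.7 and 89.1 CPM, and 32.9 and 65.4 CPM without the richest cell of each group), Ltb, which encodes lymphotoxin β (42.6 and 82.2 CPM), and Tnfsf10, which encodes TRAIL (12.4 and 17.2 CPM). BMCP 46, with B cell genes, held 3195 of the 9822 Ltb reads of BMCPs, and without it the BMCP level was 56.4 CPM. No read was found for 15 of the 32, among them Il3, Il5, Il9, Il10, Il1b, Csf2, Ifng and Il33.

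Of 22 other chemokine genes, 14 had no read, including Ccl5, Cxcl1, Cxcl2 and Cxcl10, and 3 reached 5 CPM. Ccl9, 69.2 kb from Ccl3, was at 0.152 CPM in mature cells and 183.2 CPM in BMCPs, in 14 BMCPs, all of them Gzmb-high. Of the 19 BMCPs with Ccl3, 8 held Ccl9. Ccl6 was at 0.0421 and 28.1 CPM, in 3 BMCPs, and at 14.2 CPM without BMCP 89. Ccl7 went the other way, at 52.8 and 8.30 CPM, with mature mast cell 60 holding 2479 of its 6270 mature reads and BMCP 87 holding 983 of its 992 BMCP reads. Without those cells Ccl7 was at 32.3 and 0.0765 CPM. Ccl1, at 1.65 and 3.32 CPM, was held by 2 cells in each group, and was at 0.832 and 1.63 CPM without the richest cell of each.

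Of 17 receptor genes for the products of the 10 genes, 9 reached 5 CPM, 3 were higher in BMCPs by a factor of 2 or more and 1 in mature cells, with a median log2 ratio of -0.54. Of the 3, Ccr3 had 1684 of its 1901 reads in BMCP 53 and was at 1.85 CPM without it, so that without the richest cells 2 were called in BMCPs and 1 in mature cells. The shared cytokine receptor chain Il2rg was at 657.8 CPM in mature cells and 955.6 CPM in BMCPs, the TGF-β receptor Tgfbr2 at 205.2 and 253.2 CPM, and the IL-4 receptor chain Il4ra at 124.5 and 172.4 CPM. The chemokine receptor Ccr1 was at 0.0337 and 136.2 CPM and was held by 21 BMCPs, all Gzmb-high, and no mature mast cell. The CCR2 gene, for the receptor of CCL2, was named after its values were seen: Ccr2 was at 0.0421 and 55.1 CPM, in 8 BMCPs, all Gzmb-high. The IL-6 receptor chain Il6ra, named in the same way, was at 119.9 and 58 CPM, in 44 mature cells and 10 BMCPs. BMCP 46 held 3408 of its 6928 BMCP reads, and 30 CPM were left without it.

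Genes that regulate transcription of the 10 genes differed less in the median. Of 21 such genes, 19 reached 5 CPM, 6 were higher in BMCPs by a factor of 2 or more and 2 in mature cells, with a median of -0.42. Over all genes tested, 19.2% were higher in BMCPs and 9.9% in mature cells. Without the richest cells the counts were 5 (Bhlhe40, Maf, Rel, Stat5a and Stat5b) and 2 (Nfkb2 and Relb). The 4 most abundant were Gata2 (1041 CPM in mature cells and 1394 in BMCPs), the NF-κB inhibitor gene Nfkbia (485.1 and 467.4), Nfkb1 (143.2 and 254.5) and Gata1 (232.4 and 152.3). Of 13 genes for mRNA decay, shedding or activation of these products, 10 reached 5 CPM, 3 were higher in BMCPs and 1 in mature cells, with a median of -0.58. Without the richest cells the counts were 2 and 1. Zfp36, which encodes the mRNA decay factor tristetraprolin, was at 18.7 and 61.3 CPM, and Zfp36l1 of the same family at 582.2 and 661.1 CPM. Furin, a protease that cleaves the TGF-β1 precursor, was at 48.6 and 74.4 CPM. Rc3h1, which encodes the decay factor Roquin-1, was at 63.6 and 70.1 CPM, with mature mast cell 21 holding 3111 of its 7561 mature reads and 37.9 CPM left without it.

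Of the 18 immediate early genes, 12 reached 5 CPM, 7 were higher in BMCPs by a factor of 2 or more and 2 in mature cells. Over all genes tested, 19.2% were higher in BMCPs and 9.9% in mature cells. The median log2 ratio of the immediate early genes was -1.29, and 6 and 2 were called without the richest cells. Jun was at 86.3 CPM in mature cells and 464.9 CPM in BMCPs, Ier3 at 129.7 and 398.9, Junb at 99.3 and 248.5, and Ier2 at 88.3 and 154.8.

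**Figure D5:**
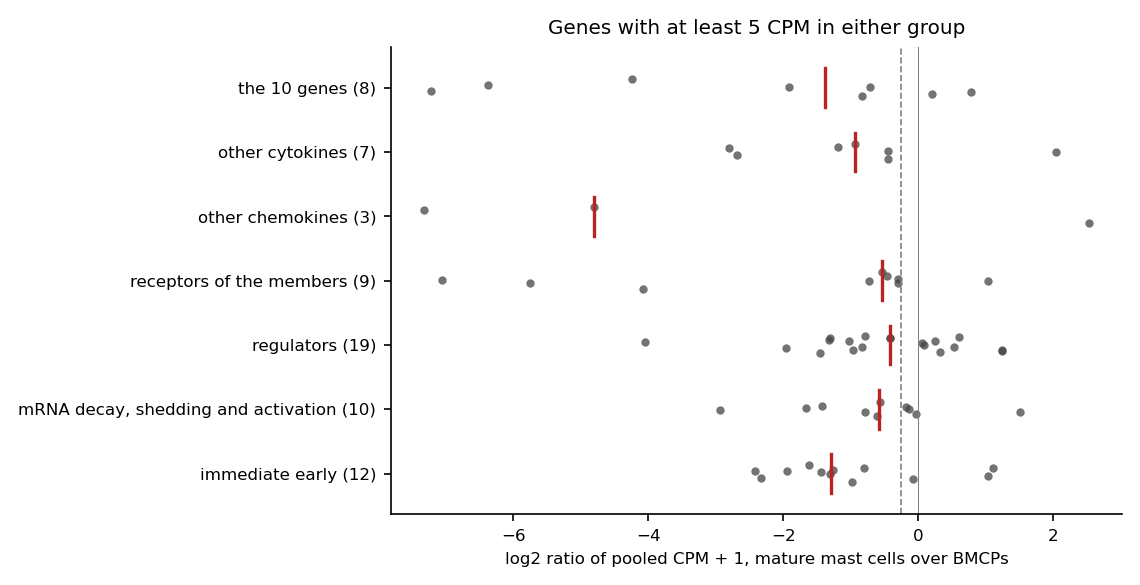
Points are genes that reached 5 CPM in 1 group or both, by the log2 ratio of pooled CPM + 1 in mature cells over BMCPs (values below 0 are higher in BMCPs). Red bars are list medians, the dashed line is the median of all 10556 genes (-0.25), and the number of genes plotted is in parentheses; the 8 plotted of the 10 genes have a median of -1.38, the immediate early genes -1.29 and the regulators -0.42.

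Likeness from cell to cell was computed for the 6 of the 10 genes held by 20 or more cells (Il4, Il6, Tnf, Ccl2, Ccl4 and Csf1). It was not computed for Il13, Ccl3, Lif and Tgfb1. The genes compared with them were the 3321 held by at least 20% of the cells of each group. Genes that no mature cell held, such as Gzmb, Ccl3 and Ccr1, could therefore not enter this comparison. Among BMCPs alone, Ccl3 with Ccl4 had a rho of 0.35. Among the 3321 genes, the highest mean of the within-group Spearman's rhos was 0.28, for Polr1d with Il6. The first genes for the others were Dctn2 for Il4 (0.26), Surf4 for Tnf (0.27), Rgs1 for Ccl2 (0.27) and Tnfrsf21 for Csf1 (0.25). For Ccl4 the mean is not given, since no mature cell held the gene. With read counts this sparse such values are no more than a description.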

How the data were processed

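The deposited values are raw counts of reads for each gene in each cell, made with HTSeq 0.5.3p3 after alignment with GSNAP to mm10, per the submitters' processing notes. Libraries were made from single wells of 2 plates of 96 wells with 23 PCR cycles, spike-in RNA and 50 bp single-end reads, per the labels' protocols. There were no molecular identifiers, so PCR copies count as reads. Strand use in counting and the annotation are not given in the sources used here. Rows of spike-ins and of reads without a feature (12.5% of the mature mast cell reads and 16.2% of the BMCP reads), ambiguous (2.97 and 3.24%) or not aligned (13.1 and 14.9%) stayed out of totals. Gene names matched 45143 of 46078 identifiers, with coordinates and exon lengths from GENCODE M21 on GRCm38.

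BMCPs 6 and 93, with 3978 and 36972 reads, were left out. No doublet caller was run on these cells sorted into single wells. Counts were summed per group, divided by the summed reads and compared as log2 ratios after adding 1 CPM. With 1 pooled sample a group, no test was made. A gene was counted as higher at a factor of 2 among genes with 5 CPM in either group. Intervals were exact Poisson for pooled counts and Clopper-Pearson for shares of cells, at 95%. The limit for a count of 0 was 3 reads over the group (0.0252 CPM for mature mast cells, 0.0251 CPM for BMCPs). The 10 genes, the gene lists and the Gzmb cut were chosen with earlier results of these data known. Genes named were the 10, the 4 with the highest CPM of each list, and the genes most like a member in Spearman's rho within the groups. All other genes named, among them the sort markers, the cell type markers and cytokines without a read and the genes whose calls rest on 1 cell, were chosen after their values were seen. Alternatives covered TMM scaling with edgeR 4.0.16, spike-in scaling, totals without granule genes, other pseudocounts, minimums and cuts, thinning to 500000 reads, and leaving out cells. Runs of columns, B cell genes, cuts in the Gzmb comparison and leaving out the richest cell for gene lists, levels per kb and Gzmb classes were alternatives chosen after seeing the data. The pooling code was tested on simulated data. Python 3.11.15, numpy 2.4.6, pandas 2.3.3 and scipy 1.17.1 were used.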

Additional observations from a re-analysis of the deposited data

How the results depend on the processing

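Il6, Ccl3, Ccl4 and Csf1 were higher in BMCPs by a factor of 2 or more under every alternative run. The number of genes so called stayed at 4 except in the first run of columns (5, with Il4) and in the second (6, with Ccl2 and Lif). In mature mast cells it was 0, and 2 with spike-in scaling (Tnf and Tgfb1). It was 1 (Tgfb1) with spike-in scaling without the cell richest in spike-in reads of each group, in the first run of columns, and without each gene's richest cells. The median log2 ratio of all genes was 0.0038 with TMM scaling, 0.68 with spike-in scaling and -0.05 without granule genes. Relative to this median, the ratio of Il4 was -0.46 to -0.48 and that of Ccl2 -0.58 to -0.60 under these scalings. Each scaling changes a whole group by 1 factor, so these relative ratios were nearly fixed in advance and are no check. Counting cells with at least 1 read in place of 20 CPM, the difference in share between Gzmb-high and Gzmb-low BMCPs was 19.4 percentage points for Il6 (38.3 as reported), 17.1 for Ccl3 (31.7), 29.4 for Ccl4 (37) and -26.2 for Tnf (-27.7). With Gzmb cut at 20 CPM, that of Ccl4 was 41. The cause of these shifts was not tested.

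No paired analysis was possible because each group is 1 pooled sample and the labels assign no cell to a mouse. Cells with 50 or more reads of at least 2 genes from a list for another cell type were left out (17 mature mast cells and 14 BMCPs). The ratios were then -4.31 for Il6, -6.05 for Ccl3, -7.20 for Ccl4 and 0.03 for Tnf. The list with the NK genes also held Il1rl1 and Gata3, which both groups expressed, so cells left out need not be of another type. With only the B cell list used (2 and 2 cells left out), the ratios were -4.25, -6.40, -7.25 and 0.20. The share of cells with Il4 was higher among mature mast cells by 2.64 percentage points at 20 CPM and the difference was -8.91 at 100 CPM. Il13, Lif in both groups and Tgfb1 in BMCPs had over 50% of their reads in 1 cell. With no molecular identifiers, the intervals of pooled CPM cover only the counting of reads, PCR copies included, and not the spread between cells.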
